A study of Mus musculus with 4 samples.

Results

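The transcripts described here encode the translation initiation and elongation factors of mouse NIH3T3 fibroblasts, with the gene of PKR itself (Eif2ak2) among them. They are all genes whose symbol begins with Eif or Eef and that have a probe set (a group of short probes read as 1 value) annotated to that gene alone. This rule found 42 genes with 62 probe sets, of 6137 named genes and 13057 probe sets in all. The first array type held 49 of these probe sets for 37 genes, and the second type, marked MB in the sample titles, held 13 for 12 genes, with 7 genes on both.

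The cells were NIH3T3, immortalised mouse fibroblasts, stably carrying wild-type PKR behind a promoter that tetracycline silences. In the control cultures PKR was kept off with 1 µg/ml tetracycline in medium with 5% serum, and in the other cultures it was switched on by leaving tetracycline out for 5 h. The serum content of the withdrawn cultures, the species of the PKR transgene and whether the line is 1 clone are not stated in the labels. Every culture carries the transgene, so by design the comparison is between its silent and its induced state. Whether PKR was in fact induced is not shown by these arrays. Both conditions were hybridised to a single array of either type. There are therefore no replicates, no p-value was computed, and every difference below describes these 4 arrays only.

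Translation initiation joins a ribosome to an mRNA and sets it on the start codon. The factor eIF2 brings the initiator tRNA as a complex with GTP, and eIF2B recharges eIF2 with GTP after each round. The eIF4 factors bind the cap and unwind the 5' end of the mRNA, while eIF3 holds the small ribosomal subunit and eIF1 and eIF5 act in start site selection. PKR, a kinase switched on by double-stranded RNA, phosphorylates the alpha subunit of eIF2, which turns eIF2 into an inhibitor of eIF2B and lowers general initiation. In the elongation step eEF1A delivers the aminoacyl-tRNAs and eEF2 moves the ribosome along. PKR acts on these factors as proteins, and the arrays measure only their mRNAs.

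The sequence of the Eif2ak2 promoter is shown because PKR is an interferon-induced gene, and its start region holds the letters by which interferon factors are known to act. The stretch runs from 250 bases before to 30 bases after the start site of the RefSeq transcript, on the minus strand of chr17:78882543-78882822 in build GRCm38.p6, and the capitals mark the match to GAAA, any 2 bases and GAAA, the core of the interferon response element, at positions 19 to 28 from the start site.

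Eif2ak2: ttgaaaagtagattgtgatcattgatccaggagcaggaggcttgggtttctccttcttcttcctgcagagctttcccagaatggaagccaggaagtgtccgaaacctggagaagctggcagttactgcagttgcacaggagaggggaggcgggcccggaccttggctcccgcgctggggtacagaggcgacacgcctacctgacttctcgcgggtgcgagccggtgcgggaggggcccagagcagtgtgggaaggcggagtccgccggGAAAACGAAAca

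Promoters of all members, Eif2ak2 included, were searched on both strands for the same pattern and for TGATGNAA. The latter is the core of the C/EBP-ATF response element. ATF4, the transcription factor translated when eIF2 is phosphorylated, is known to bind it. The RefSeq promoter table (build GRCm38.p6, 300 bases each) held 33 of the 42 genes. The interferon response core was found for 3 of these 33 genes (9.09%) against 1079 of 27025 genes in the table (3.99%). It was in 3.44% of all its 32851 promoters. The 3 genes are Eif2ak2, Eif3a and Eif2s3x. Since Eif2ak2 was shown above for this very match, the share is not read as a result about the members. TGATGNAA was found for 2 of 33 (6.06%) against 1219 of 27025 genes (4.51%) and 3.97% of the promoters. The matching stretches of the genes other than Eif2ak2 are printed with the match, which reads as the reverse complement here, in capitals. Matches of the 2 motifs did not overlap each other. The Eif2s3x matches lie at positions -96 to -89 for TGATGNAA and across the start site for the interferon core (minus strand, chrX:94212710-94212777 and chrX:94212622-94212685), the Eif3a match lies at positions -211 to -202 (minus strand, chr19:60790865-60790934), and the Eef2k match lies at positions -84 to -77 from 1 of that gene's annotated start sites (plus strand, chr7:120851075-120851142).

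Eif2s3x, TGATGNAA: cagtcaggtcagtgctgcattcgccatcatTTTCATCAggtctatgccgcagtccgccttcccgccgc

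Eif2s3x, interferon core: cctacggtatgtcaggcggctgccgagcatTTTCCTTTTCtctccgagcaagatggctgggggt

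Eif3a, interferon core: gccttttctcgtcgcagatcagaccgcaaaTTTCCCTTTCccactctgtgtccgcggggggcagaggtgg

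Eef2k, TGATGNAA: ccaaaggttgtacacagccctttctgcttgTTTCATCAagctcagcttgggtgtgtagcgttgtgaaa

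These matches are letters in a window and do not show binding.

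Probe sets count as measured here where both arrays read above a floor, set at the 25th percentile of the pooled non-control values (130 for the first type, 80.0 for MB). A stricter limit, the control floor, is the level that 95% of the values of 39 control probe sets for bacterial and yeast sequences stay under (281.5 and 340.4). Changes are log2 ratios, withdrawn divided by tetracycline. Beside a change stands its spread, a robust SD over the 200 probe sets of most similar level on that array type, those under the floor included. The spread mixes noise with true differences, and it cannot stand in for replicates. Intensities depend on the probes of each set, so levels are not compared between genes. Across the data set, 13 of the 14 fibroblast markers were on the arrays, and all 13 had a probe set above the control floor on both arrays. Of the markers of leukocytes, epithelium, endothelium and muscle, 2 of 15 genes on the arrays had one. Of the 21 measured fibroblast marker probe sets, both types together and several for some genes, 17 were lower after withdrawal (median -0.25). Over all measured probe sets 2249 of 4402 were lower on the first type and 2070 of 4360 on MB. Those with a mean intensity of 2000 or more had medians of -0.053 and -0.060. Whether the values of the fibroblast markers bear on those below was not tested. The ratio of 3' to 5' control signal lay between 0.711 and 0.828 for Gapdh and between 0.934 and 1.05 for beta-actin.

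Few translation factor transcripts read far apart in the 2 conditions. Of the 62 probe sets 56 were measured, for 39 genes, and 44 of these changed by less than their spread. These were 34 of 44 on the first type, where 3053 of all 4402 measured probe sets did so, and 10 of 12 on MB, where 3040 of 4360 did. The spread is a robust SD, so most probe sets of any kind fall within it, and nothing particular to the members is read from these counts. The 2 arrays of each type have nearly the same average intensity (2% trimmed mean). Cell number and RNA per cell can therefore be neither read from these bulk values nor told apart. The median change was -0.037 on the first type (44 probe sets) and 0.057 on MB (12 probe sets), beside medians of -0.012 and 0.025 over all measured probe sets. On the first type 19 were higher and 25 lower after withdrawal, and on the MB type 7 were higher and 5 lower.

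At least 2-fold differences with both values above the floor were seen in 3 probe sets, those of Eif4ebp2, Eef2 and Eif4h. On the first type 1 of 44 was higher and 1 was lower by that much, where 4.36% and 4.02% of the 4402 measured probe sets of that type were. On the MB type 1 of 12 was higher and 0 were lower, beside 8.46% and 6.65% of 4360. Above the control floor the first type had 0 of 39 higher and 1 of 39 lower (background 1.88% and 1.29% of 3555), and the MB type 0 of 10 in either direction (background 1.97% and 0.767% of 2738). Changes beyond 2 times the spread were found in 2 of 44 on the first type, Eif4ebp2 and Eef1d, and in 0 of 12 on the MB type, where 5.97% and 6.63% of all measured probe sets went that far. With so few members, 1 probe set more or less moves these shares widely, and nothing is read from them.

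**Figure D1:**
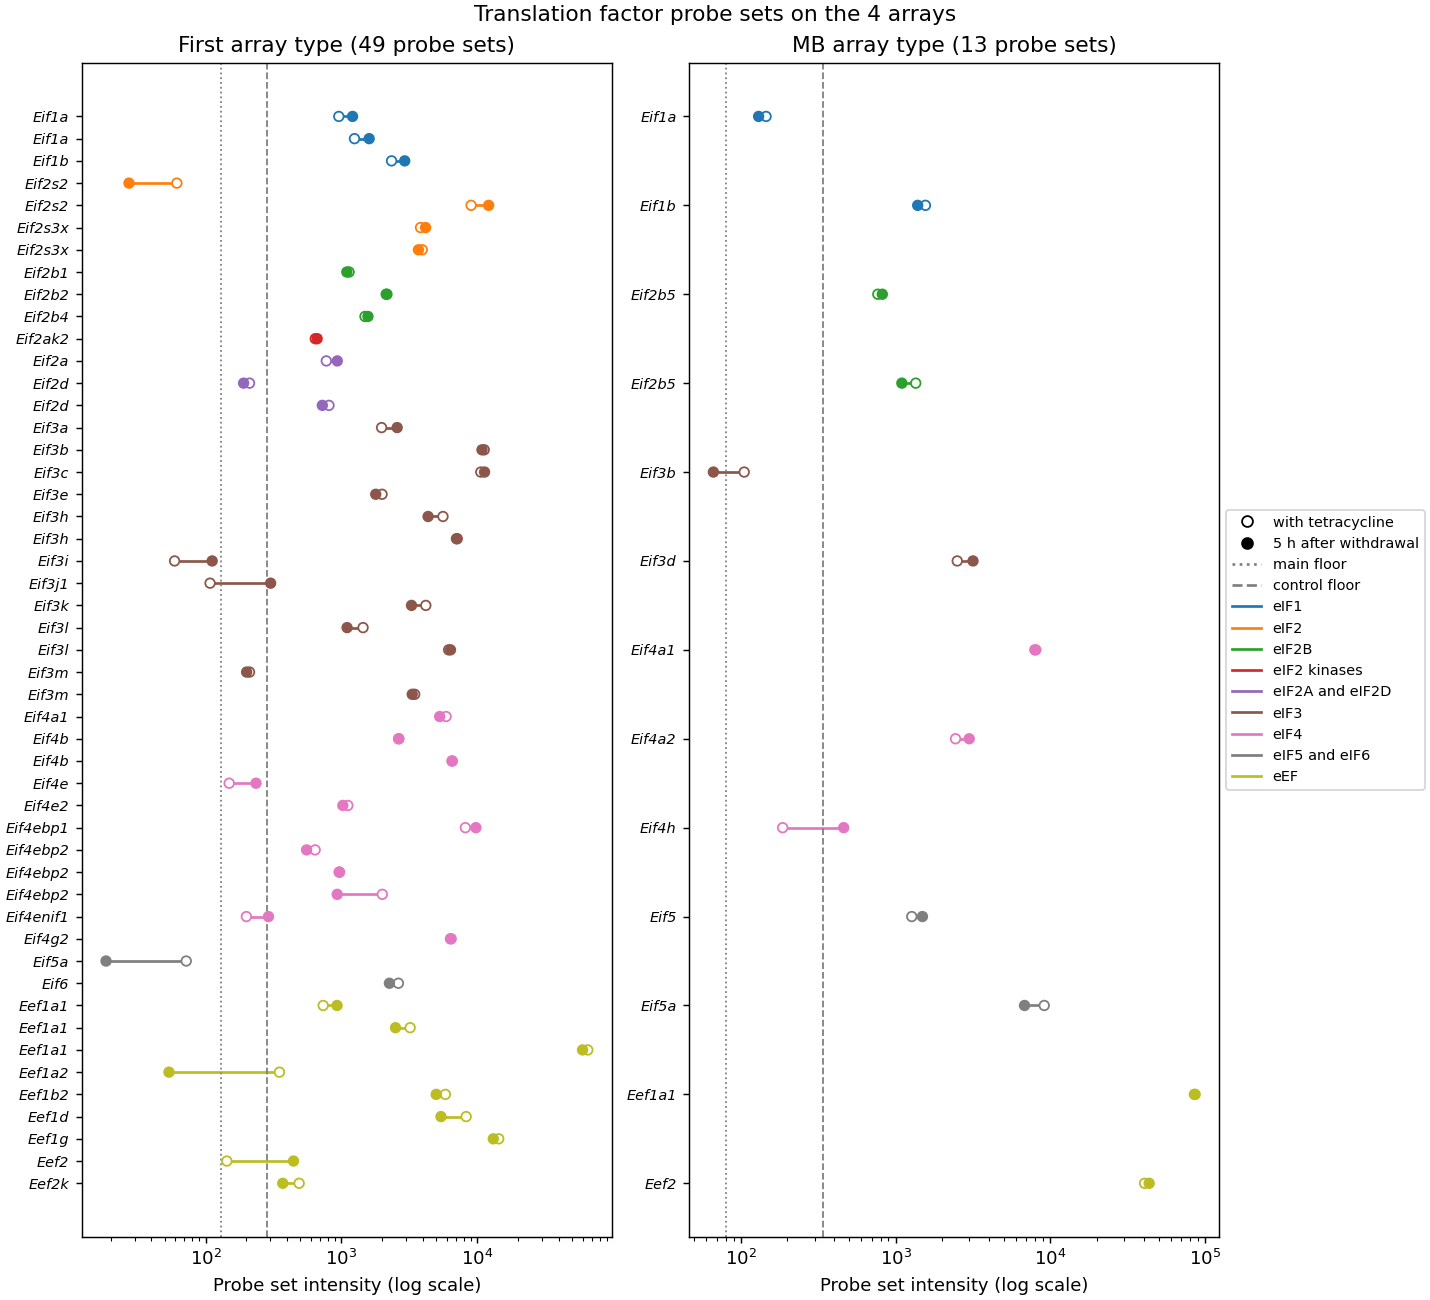
Intensity of each translation factor probe set with tetracycline (open circles) and 5 h after withdrawal (filled circles), on log axes, for the first array type (left, 49 probe sets) and the MB type (right, 13), coloured by factor complex. Dotted and dashed lines mark the main floor and the control floor. The pairs of circles nearly coincide above the control floor, with Eif4ebp2 (2005.7 to 932.7) as the widest pair there.

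On the first type changes were smaller where levels were higher, among members and among all probe sets. Among probe sets of the first type with a mean intensity of 2000 or more, the median absolute change of the 24 members was 0.13, and none reached 2-fold. The 1002 probe sets of that level in all had a median of 0.21, and 9 of them reached 2-fold. Between the control floor and 2000, the 15 members had a median absolute change of 0.21 and all 2853 probe sets one of 0.32. In the range from the main floor to the control floor, 5 members had a median of 0.54 and all 547 probe sets one of 0.53. The MB type had 6 members at 2000 or more (median absolute change 0.20, beside 0.19 over 956) and 4 between the control floor and 2000 (0.20, beside 0.33 over 2047), so the median of the MB members was the same to 2 decimals in both ranges. The 2 under the control floor had a median of 0.73, beside 0.69 over 1357.

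**Figure D2:**
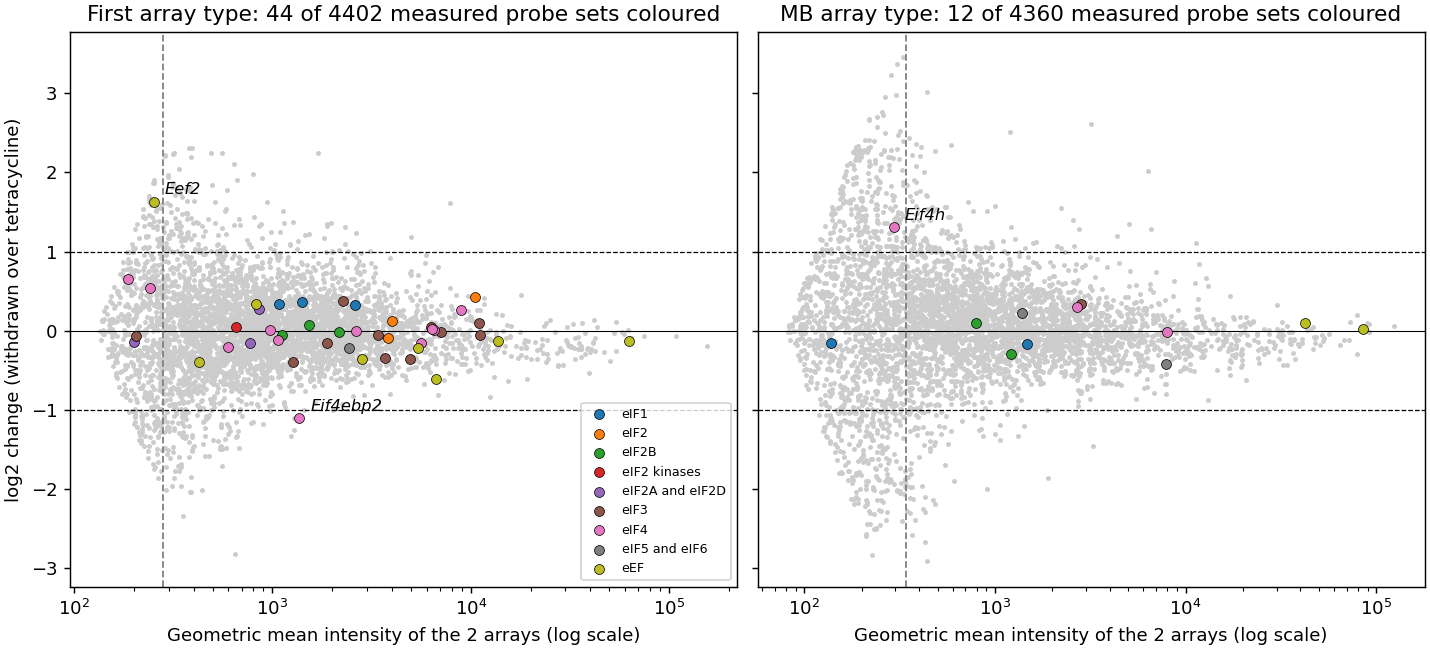
Change of each measured probe set (log2 of withdrawn over tetracycline) against the geometric mean of its 2 intensities (log axis), with translation factors coloured by complex and all other probe sets in grey. Horizontal dashed lines mark 2-fold, and the vertical dashed line marks the control floor. Of the 3 named members past 2-fold, Eef2 (1.63) and Eif4h (1.31) lie left of the control floor and Eif4ebp2 (-1.10) lies right of it.

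The kinases of eIF2 were represented by PKR alone. The probe set of mouse Eif2ak2 read 643.3 with tetracycline and 663.6 after withdrawal, a change of 0.045 with a spread of 0.52. Both readings are above the control floor, and the change is well inside the spread at that level. Since the species of the transgene is not given, this reading does not test whether PKR was induced. No probe set carried Eif2ak1, Eif2ak3 or Eif2ak4 as its only symbol, which encode the heme-regulated, endoplasmic reticulum and amino acid sensing kinases. The same holds for Eif2s1, which encodes the alpha subunit that PKR phosphorylates, so the transcript of the substrate was not analysed here.

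The other eIF2 subunits were both measured. Eif2s2, encoding the beta subunit, read 9035.3 with tetracycline and 12162.1 after withdrawal. Its change of 0.43 was 1.55 times the spread of 0.28 and the highest of any member above the control floor on both arrays. A second Eif2s2 probe set was under the floor on both arrays (61.5 and 27.3) and gave no measured change. Eif2s3x, encoding the X-linked gamma subunit that binds GTP and the initiator tRNA, had 2 probe sets of 1 source sequence. They read 3949.5 and 3698.2 on 1 of them (-0.095), and 3832 and 4177.9 on the other (0.12), so the 2 probe sets of the gamma subunit differ in sign.

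The eIF2B subunits all read within their spreads. This exchange factor is the target that phosphorylated eIF2 blocks, and 4 of its subunits were on the arrays with 5 probe sets, all above the control floor. Eif2b1, encoding the regulatory alpha subunit, read 1140.7 and 1097.8 (-0.055), Eif2b2, encoding the beta subunit, 2168.1 and 2141.1 (-0.018), and Eif2b4, encoding the delta subunit, 1494.2 and 1571.3 (0.073). Eif2b5, which encodes the catalytic epsilon subunit, was measured by 2 probe sets of the MB type. They read 768 and 821 (0.096), and 1349.9 and 1098.3 (-0.30). All 5 changes were smaller than their spreads of 0.34 to 0.44, and the 2 probe sets of the epsilon subunit differ in sign. Eif2a and Eif2d encode other carriers of initiator tRNA and are no subunits of eIF2. Eif2a read 775.5 and 933.9 (0.27), and Eif2d 811 and 724.9 (-0.16), with a dimmer second probe set at -0.15 that lay under the control floor.

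The eIF1 probe sets annotated to a single gene were higher on the first array type and lower on the MB type. Eif1a, encoding eIF1A, which helps the ribosome scan for the start codon, read 958.6 and 1209.8 on 1 probe set (0.34) and 1250.7 and 1603.8 on the other (0.36). Eif1b, a relative of the start codon factor eIF1, read 2345 and 2931.2 (0.32) there. Their spreads were 0.32 to 0.39. On the MB type Eif1b read 1559.5 and 1389.6 (-0.17), and Eif1a 145.8 and 130.5 (-0.16), the latter under the control floor. The 3 probe sets of the first type and the 2 of the MB type therefore had opposite signs for both genes, and no direction can be given for either. A further probe set of the first type is annotated to Eif1a and 3 other genes and has the source sequence of the MB Eif1a probe set. It read 394.9 and 236.6 (-0.74), the latter under the control floor. Both probe sets of that source sequence read lower, but each has a value under the control floor. The MB change was small beside its spread of 1.80. Whether the split follows the source or the array type was not tested.

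The subunits of eIF3, the largest initiation factor, had changes on both sides of 0. Of its 11 genes on the arrays 9 had a measured probe set. The median was -0.060 over 11 probe sets of the first type, 8 of them lower and 3 higher (6 and 5 after quantile normalization or loess). Over all measured probe sets of that type 2249 of 4402 were lower, and those of 2000 or more had a median of -0.053. The eIF3 median was -0.013 after quantile normalization and -0.11 with each gene counted once by its median change. The only measured probe set of the MB type, that of Eif3d, was higher (2502.3 to 3163.3, 0.34). Eif3a, encoding the scaffold subunit, read 1979.9 and 2577.7 (0.38, spread 0.35), the highest value of the complex on the first type. The lowest was Eif3l at -0.39 (1445.6 and 1102.7), but the second and brighter Eif3l probe set of the same source sequence gave 0.045 (6173.4 and 6370.8). The other members near that end were Eif3h with -0.36 (5607 and 4356.7) and -0.020 (7144.2 and 7046.8) on its 2 probe sets, and Eif3k with -0.35 (4191.1 and 3289.2). Changes close to 0 were found for Eif3b (11284.4 and 10865.5, -0.055), Eif3c (10647 and 11348.2, 0.092) and Eif3m (3470 and 3329, -0.060). Eif3e read 1995.6 and 1792.8 (-0.15). No eIF3 probe set measured on both arrays came near 2-fold.

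Of the eIF3 genes, 2 had no measured change. Eif3j1, encoding the loosely bound subunit eIF3j, read 108, below the floor, with tetracycline and 301.6 after withdrawal, which makes it at least 2.32-fold higher against the main floor but only 1.07-fold against the control floor. The mouse genome also holds Eif3j2, a close copy, which the probes may not tell apart from it. Eif3i was under the floor on both arrays (59.2 and 111.9). A second probe set of Eif3b, on the MB type, read 105.3 and 66.6, the latter under the floor.

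The eIF4 group, which recognises and unwinds the capped end of the mRNA, held both the lowest change above the control floor and some of the changes nearest to 0. Its median was 0.0022 over 11 probe sets of the first type (-0.015 with loess and -0.025 after quantile normalization) and 0.29 over 3 of the MB type (0.14 over the 2 above the control floor). The helicase gene Eif4a1 gave -0.16 on the first type (5910.2 and 5304.6), and its MB probe set read 8050.9 and 7929.5 (-0.022). Its paralog Eif4a2 read 2438.5 and 2990.4 (0.29, spread 0.32). Both probe sets of Eif4b, a cofactor of the helicase, read alike, with 6544.2 and 6554 on the brighter and 2652.8 and 2644.5 on the dimmer (0.0022 and -0.0045). Eif4g2, a relative of the scaffold eIF4G that lacks the cap-binding protein's site, read 6366.7 and 6440.3 (0.017).

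The cap-binding protein gene Eif4e was dim on both arrays (149.4 and 235.5, 0.66), below the control floor, with a spread of 1.45 at that level. Its relative Eif4e2 read 1117 and 1026.1 (-0.12). Eif4enif1, encoding the transporter that carries eIF4E into the nucleus, read 199.9 and 290.9 (0.54, spread 1.18) and was below the control floor with tetracycline. Eif4h, another helicase cofactor, was 2.48-fold higher on the MB type (186.6 to 462.3, 1.31), but its tetracycline value was under the control floor. Against that floor the bright value gives a bound of 1.36-fold, and the spread at this level was 1.01. The 3 highest changes of the group, those of Eif4h, Eif4e and Eif4enif1, thus all came from probe sets with at least 1 value below the control floor.

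The 4E-binding proteins, which hold eIF4E away from eIF4G until mTOR phosphorylates them, had unlike values. Eif4ebp1, a known ATF4 target, read 8193.6 and 9797.9 (0.26, spread 0.28). Eif4ebp2 had 3 probe sets. The brightest was 2.15-fold lower (2005.7 to 932.7, -1.10), 2.93 times its spread of 0.38. A second probe set made from the same source sequence read 641.3 and 555 (-0.21), and the third, from another source, 963.9 and 970.7 (0.010). The 2-fold difference was therefore seen on 1 of 3 probe sets, and the gene's median change was -0.21.

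**Figure D3:**
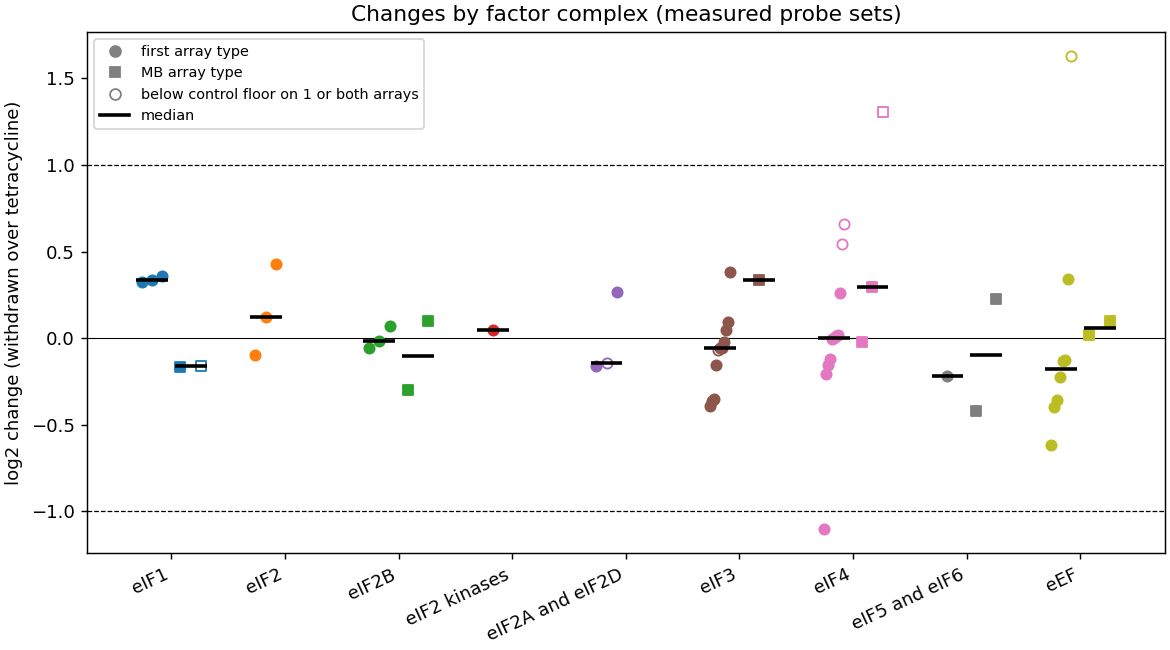
Change (log2 of withdrawn over tetracycline) of every measured probe set by factor complex, with circles for the first array type, squares for the MB type, open symbols for probe sets below the control floor on 1 or both arrays, and a bar at each median. Dashed lines mark 2-fold. Medians lie between -0.22 and 0.34, and both upward points past 2-fold are open symbols.

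Of the factors that join the ribosomal subunits and keep them apart, Eif5, which makes eIF2 hydrolyse its GTP, read 1272.4 and 1491.1 (0.23). Eif6, encoding the factor that holds the large subunit free of the small one, read 2632.9 and 2261.1 (-0.22). Both changes were within their spreads of 0.36 and 0.35. Eif5a, encoding the hypusine-bearing factor that eases peptide bond formation at stalling sites, read 9125 and 6806.8 on the MB type (-0.42), which was 1.57 times its spread of 0.27. Its probe set on the first type was under the floor on both arrays (72.1 and 18.5) and gave no measured change.

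The elongation factors of the first type were lower in 6 of 8 measured probe sets, with a median of -0.18 (5 of 8 after quantile normalization or loess, with a median of -0.098 under loess). The share lower over all probe sets of that type is the 2249 of 4402 given for eIF3. Both probe sets of the MB type were higher, with a median of 0.058, although median ratio scaling put 1 of the 2 below 0. Eef1a1, encoding the main carrier of aminoacyl-tRNA, was measured by 4 probe sets. The bright probe sets of 1 source sequence read 65346.7 and 59806 on the first type (-0.13) and 85051.9 and 86069.6 on the MB type (0.017). The others, on the first type, read 3213.3 and 2506.4 (-0.36) and 735.4 and 930.6 (0.34). All 4 carry the letter f in their names, which marks probes shared by similar sequences, so copies of Eef1a1 cannot be told apart. The Eef1a1 changes thus lie on both sides of 0, and loess turned that of the brightest probe set of the first type to 0.090.

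The exchange factor of eEF1A was represented by 3 subunits, all lower in the deposited values, with Eef1g at 0.013 after quantile normalization. Eef1b2, encoding the beta subunit, read 5841.1 and 4999.1 (-0.22), and Eef1g, encoding the gamma subunit, 14432.1 and 13161.7 (-0.13), both within their spreads and both with shared probes. Eef1d, encoding the delta subunit, read 8307.1 and 5419, 1.53-fold lower (-0.62), which was 2.10 times its spread of 0.29. It had the second lowest change of all members above the control floor, after Eif4ebp2, and only 1 probe set.

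Eef2, encoding the translocation factor, gave unlike results on the 2 types although both probe sets are annotated to 1 source sequence. On the MB type it read 40590.8 and 43450.6 (0.098). On the first type it read 143.6 and 444.5, 3.10-fold higher (1.63), with a tetracycline value below the control floor and a spread of 1.03. Against that floor the bright value gives a bound of 1.58-fold. The name of this probe set holds rc, which marks a design to the reverse complement of the source entry. The names of 7 others hold it too, among them the bright Eif3b, Eef1b2 and Eif3k probe sets of the first type. Those have other source entries, and whether the design bears on the Eef2 reading was not tested. Eef2k, encoding the kinase that inactivates eEF2, read 489.2 and 370.7 (-0.40, spread 0.57). Eef1a2, the form of eEF1A used in muscle and neurons, read 350.1 with tetracycline and 53.8 after withdrawal, under the floor, which makes it at least 2.70-fold lower against the main floor and 1.24-fold against the control floor.

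Probe sets of 1 gene did not always read alike. Of the 16 genes with more than 1 probe set, 13 had at least 2 measured. The gap between the lowest and the highest change of a gene had a median of 0.39, and was 0.5 or more for Eif4ebp2, Eef2, Eef1a1 and Eif1a. In 8 of the 13 genes the probe sets had opposite signs, in 4 all were lower and in 1, Eef2, all were higher. Signs differ easily where changes are near 0, as for Eif4b (-0.0045 and 0.0022). The share over all genes with several probe sets was not computed, so nothing particular to the members is read from these counts. For the 9 genes with a pair annotated to 1 source sequence, the difference within the pair ranged from 0.0067 for Eif4b to 1.53 for Eef2, with a median of 0.34. The Eef2 value rests on the probe set below the control floor, and the next is 0.90 for Eif4ebp2.

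**Figure D4:**
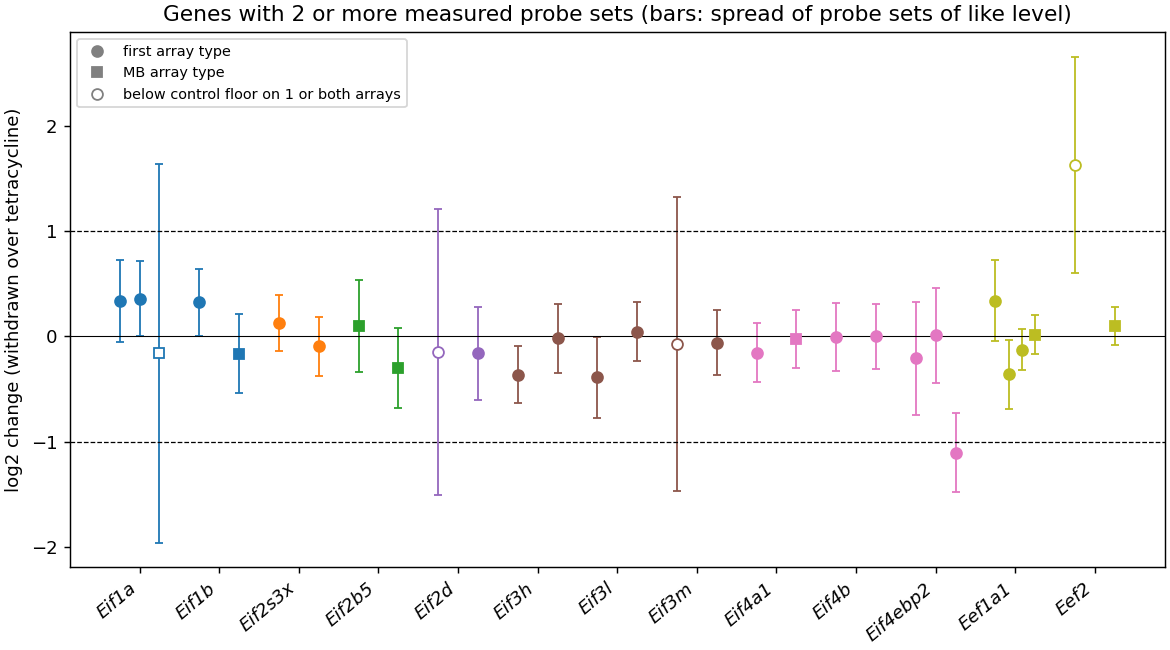
Change (log2 of withdrawn over tetracycline) of each measured probe set of the 13 genes with at least 2, with circles for the first array type, squares for the MB type and open symbols for probe sets below the control floor on 1 or both arrays. Bars show the spread of the 200 probe sets nearest in level, not a replicate error. The probe sets of Eif4b and Eif3m nearly coincide, and those of Eif4ebp2 and Eef2 lie more than 1 log2 unit apart.

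Partners of these factors, taken from 6 lists of 67 genes, had 3 probe sets past 2-fold. The arrays held 29 of these genes, with 36 measured probe sets, 18 higher and 18 lower (median 0.078 over 26 on the first type and -0.12 over 10 on the MB type). On the first type 0 were higher and 1 lower by 2-fold, and on the MB type 1 was higher and 1 lower, beside the shares of all probe sets given above. Ppp1r15a, encoding the stress-induced subunit that directs phosphatase 1 to eIF2 alpha, was 2.93-fold higher (1293.3 to 3786.4, 1.55, spread 0.28). Its constitutive relative Ppp1r15b read 1880.8 and 2775.1 (0.56, spread 0.34). The catalytic subunit genes of phosphatase 1 differed in sign, with Ppp1ca at -0.35, Ppp1cb at 0.23 and Ppp1cc at 0.45.

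Among inhibitors of initiation and growth signalling, Pdcd4, which blocks the eIF4A helicase, was lower (974.3 to 349.3, -1.48, spread 0.55). Tsc2, an inhibitor of mTOR signalling, was lower on the MB type (577.2 to 150.4, -1.94), where the later value is below the control floor. On the first type Tsc2 read 876.2 and 931.6 (0.088). Tsc1, from the same list, was higher (267.8 to 338.8, 0.34, spread 0.83), with its tetracycline value below the control floor. That list, of cap-dependent initiation partners, had 5 measured probe sets higher and 6 lower (median -0.020). Of the 6 measured probe sets of PKR regulators 4 were higher and 2 lower, and none reached 2-fold. Tarbp2, an inhibitor that binds double-stranded RNA, read 1476.6 and 1249.4 (-0.24). Dnajc3, encoding the PKR inhibitor p58IPK, read 1081.7 and 913.2 on the first type (-0.24) and 677.5 and 721.1 on the MB type (0.090). The others, all of the first type, were Adar (0.064) and Metap2 (0.068), which encode an RNA editing enzyme and a protector of eIF2, and Dicer1 (0.50, spread 1.75), which encodes the enzyme that cuts double-stranded RNA and lay below the control floor. Prkra, the gene of the PKR activator PACT, was not analysed here. Pabpc1, encoding the poly(A)-binding protein that joins both mRNA ends through eIF4G, read 30901.2 and 30480.8 (-0.020) and 50201.2 and 42915.4 (-0.23). Etf1, encoding the release factor eRF1, was higher on 3 of its 4 probe sets, with 0.44, 0.48 and 0.27, and gave -0.044 on the other. Its list, that of termination and recycling, had only these 3 measured probe sets higher and 6 lower (median -0.13).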

How the data were processed

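RNA of the 4 samples was measured on 2 array types. Intensity on a linear scale is what the authors deposited, 1 value for every probe set of an array. How they were made is not given in the sources used here, and no label names software or a scaling step. The 2% trimmed means were 999.9 and 1000.4 on the first type and 996.6 and 997.3 on the MB type, so the deposited intensities were used unscaled. Each type had 61 control probe sets, which were left out, leaving 6523 and 6534. Gene names came from the platform annotation, where 5541 and 2001 probe sets had 1 symbol, 197 and 27 several, and 785 and 4506 none. No probe set with several symbols was counted as a member. The 2 of the first type whose symbols include a member are given apart. Symbols updated through Entrez identifiers gave the same members.

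The array types carry different probe sets and were never pooled per probe set. Counting and scaling were tested on simulated data. Values are given for every eIF2, eIF2B and kinase gene, every member past 2-fold or with a bound past 2-fold, genes whose probe sets differ by over 0.5, and the extreme and the brightest members of each complex. Members and lists were chosen with earlier results of these data known. Alternatives were other scalings, floors, fold limits and gene-level values. Partner genes are those past 2-fold and a preset few, and Ppp1r15b, the Ppp1c genes, Tsc1 and Etf1 were added after their values were seen. The work used pandas 2.3.3 and numpy 2.4.6 under Python 3.11.15, with loess from statsmodels 0.14.6 and plots from matplotlib 3.10.9. The number of arrays limits the precision.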

Additional observations from a re-analysis of the deposited data

How the results depend on the processing

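Every scaling (trimmed mean, quantile, median ratio, loess) left the counts of 2-fold differences as they were. On the first type 1 probe set was higher by 2-fold. That count was 0 with the higher floor (259) and with the control floor, and 2 with the lower floor (64.9), with no floor and with a 1.5-fold limit. The 1 lower probe set became 2 with a 1.5-fold limit, 4 with no floor and 0 with a 3-fold limit. On the MB type the 1 higher probe set became 0 with the control floor and with a 3-fold limit. Medians moved by more than the robust SD of the members' changes in 3 of 187 values. On the MB type eIF3 went to -0.16 with the lower floor and with no floor, which let in Eif3b. On the first type eIF5 and eIF6 went to -1.09 with no floor, which let in Eif5a. That SD was 0.22 on the first type and 0.33 on MB, so medians near 0 could change sign within it. With the control floor the first-type median of eIF2A and eIF2D went from -0.15 to 0.053, and that of eIF4 from 0.0022 to -0.0045. The median of all members kept its sign on both types under every alternative run, from -0.055 to -0.015 on the first and from 0.017 to 0.11 on the MB type. No change past 2-fold reversed its sign. Of 435 values for single probe sets 1 moved by more than its spread, the brightest Eef1a1 probe set of the first type, to 0.090 with loess. Another floor cannot alter the change of a single probe set, so only the values under other scalings could have moved. The share that stayed is therefore not read as stability. No replicate could be left out, with 1 array per condition and type. No paired analysis was possible because the labels give no replicate numbers.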

Other observations

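The 2 probe sets that the annotation gives to a member and to other genes stand outside the comparison. The Eef1a1 probe set with 3 symbols read 42529.1 with tetracycline and 43764.1 after withdrawal (0.041). The other, annotated to Eif1a and 3 further genes, is given with the eIF1 genes above.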
